A study of Mus musculus with 6 samples.

Results

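The suppressors of cytokine signalling, Cish and Socs1 to Socs7, were followed here in regulatory T (Treg) cells with and without miR-142. They were taken from the count matrix by gene symbol, which gave 8 of its 24421 genes. RNA-seq was done on CD4+YFP+ Treg cells sorted from the spleens of female C57BL/6 mice aged 8 to 11 weeks, with 1 library per mouse. The WT group held 3 mice with the Foxp3Cre allele alone, and the KO group held 3 mice with Foxp3Cre and both conditional miR-142 alleles (Foxp3Cre miR-142fl/fl). Both groups thus carried the Cre recombinase. It is made as a fusion with YFP from the promoter of Foxp3, which directs the deletion to cells in which this promoter is active. The libraries held between 13883069 and 24042994 counts. The comparison of KO with WT asks how the RNA of these inhibitors differs between Treg cells from KO and WT mice. Such KO mice develop a fatal systemic autoimmune disease. The authors name as a caveat that this inflammation might itself change gene expression in the Treg cells. Loss of the miRNA and the inflamed host cannot be told apart in this comparison.

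SOCS proteins are brakes on cytokine receptors that signal through Janus kinases (JAKs) and STAT transcription factors. Each holds an SH2 domain, which binds phosphotyrosine on a receptor or kinase, and a SOCS box, which joins it to a ubiquitin ligase. Cish, Socs1, Socs2 and Socs3 are well known as genes that STATs themselves switch on, and in Treg cells IL-2, acting through STAT5, is a main source of this signal.

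Levels are given as CPM, counts scaled to the size of the library over the 11658 genes tested and adjusted between libraries by the TMM method. Differences are log2 fold changes of KO over WT from the quasi-likelihood F (QLF) test of edgeR, with a standard error (SE), and FDR is the Benjamini-Hochberg adjusted p over all genes tested. A gene is called when this FDR is under 0.05. With 3 mice against 3, an exact two-sided permutation test cannot give a p below 0.1.

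The miRNA that was deleted is made as a pair of mature strands from chromosome 11. They are shown because the 3′ UTRs of the SOCS genes were searched for their seeds, bases 2 to 8, which are in capitals (RefSeq, GRCm38.p6, forward strand):
mmu-miR-142a-5p (chr11:87756867-87756887): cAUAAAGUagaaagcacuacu
mmu-miR-142a-3p (chr11:87756903-87756925): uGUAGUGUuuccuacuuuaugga

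The labels were checked on the targeted locus and on Treg cell genes. Mir142b, annotated over the same hairpin, was at 9.05, 4.14 and 5.81 CPM in WT replicates 1, 2 and 3 and at 0.389, 0.379 and 0.342 CPM in KO replicates 1, 2 and 3. The lowest WT library lay far above the highest KO library, and Mir142 itself had 0 counts in all 6 libraries. Foxp3, which defines the lineage, was at 536, 595 and 566 CPM in WT and 642, 749 and 677 CPM in KO. Cd4 was at 1043, 1015 and 1005 CPM in WT and 833, 867 and 926 CPM in KO. Neither of the 2 genes overlapped between the groups or was called in the edgeR QLF test (FDR = 0.083 and 0.123), while DESeq2 called Foxp3 higher (FDR = 0.0311) and Cd4 lower (FDR = 0.0273). All 10 genes of the Treg and CD4 T cell list were detected in every library, with sums of 6780, 7418 and 7369 CPM in WT and 8320, 9136 and 9436 CPM in KO. The most abundant of them was Il2ra, and without it the sums overlapped, at 5982, 6674 and 6643 CPM in WT and 6062, 6732 and 6363 CPM in KO.

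KO replicate 1 stood apart in the markers of other cells. Its sum over 15 monocyte and macrophage genes was 3241 CPM, against 166 and 81.6 CPM in KO replicates 2 and 3 and 51.1 to 58.9 CPM in WT, with Csf1r the most abundant at 640 CPM. For 13 neutrophil genes the sum was 981 CPM against 8.40, 48.7 and at most 1.54 CPM in WT, led by S100a9 at 248 CPM. For 11 B cell genes it was 2430 CPM against 203, 286 and at most 92.3 CPM in WT, led by Cd74 at 2097 CPM. Without Cd74 this sum was 333 CPM in KO replicate 1, but 9.46 and 13.1 CPM in KO replicates 2 and 3, below the 30.8 to 41.9 CPM of WT. Lists of 9 CD8 T and NK cell genes, 5 dendritic cell genes and 9 erythroid genes were also highest there, at 253, 142 and 37.1 CPM, against at most 113, 1.22 and 4.77 CPM in the other libraries. The CD8 T and NK cell sum was also 113 and 106 CPM in KO replicates 2 and 3, against 31.4 to 40.2 CPM in WT. Like it, the sums of the monocyte and macrophage, neutrophil and erythroid genes were higher in every KO library than in every WT library, so leaving out KO replicate 1 does not remove these differences. The most abundant genes of the CD8 T and NK cell, dendritic cell and erythroid lists were Nkg7, Itgax and Slc4a1. The 5 globin genes of the erythroid list had 0 counts throughout. S100a8, Csf3r, Fcgr1, Ncr1 and Clec9a were at 0 in every WT library. Each SOCS gene's log2 fold change is therefore also given without KO replicate 1. The part of these cells in the differences of the SOCS genes was otherwise not tested. In such bulk libraries, more cells with a transcript and more of it per cell cannot be told apart.

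All 8 SOCS genes passed the filter on low counts and were tested, and 4 of them, Socs2, Socs3, Cish and Socs1, were higher in KO. Over all genes tested, 18.8% were called, 11.6% as higher and 7.27% as lower in KO. None of the 8 was called lower by edgeR or by DESeq2, and the FDR of each of the 4 others was above 0.5 in the QLF test, with no unadjusted p under 0.05. In the same 4 genes the lowest KO library exceeded the highest WT library, while the groups overlapped in Socs4, Socs5, Socs6 and Socs7. Of all genes tested, 22.2% had their KO libraries all above their WT libraries and 18.8% had the reverse. The median log2 fold change of the 8 was 0.30, beside 0.02 over all genes tested. Without KO replicate 1, 3 of the 8 were called, all as higher, beside 1975 of all genes tested in that fit (1107 higher and 868 lower).

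**Figure D1:**
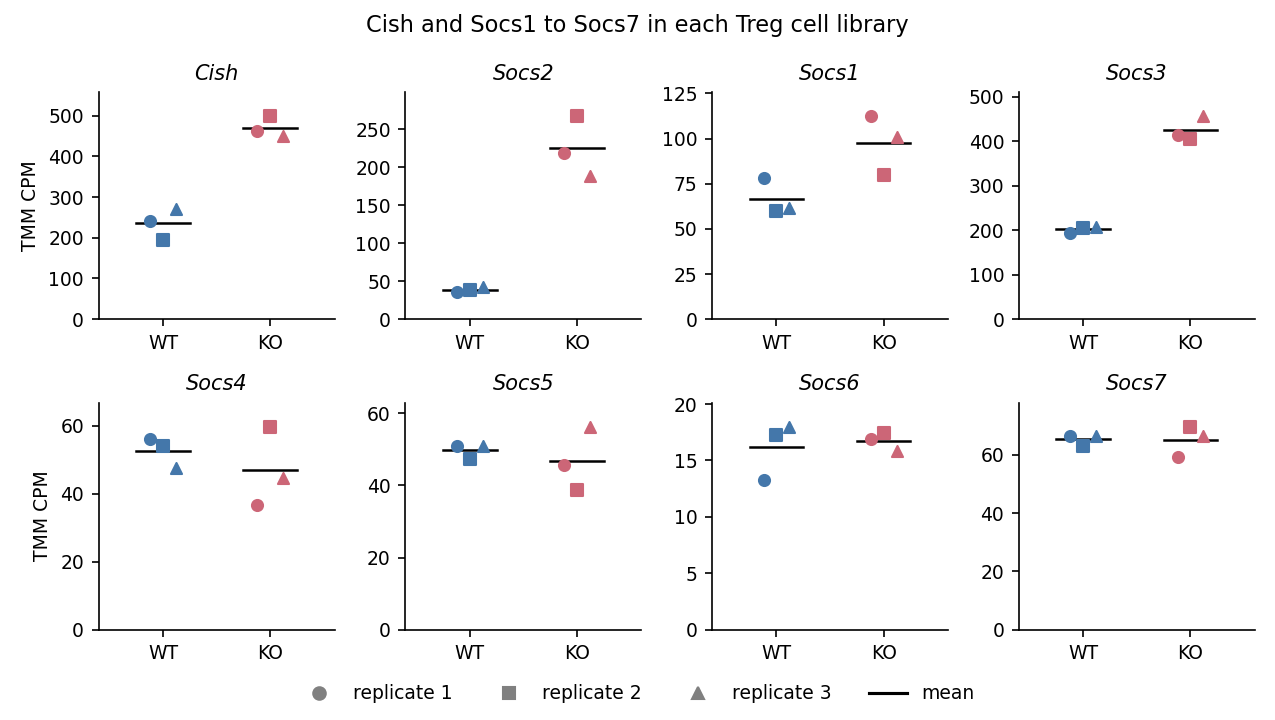
Level of each SOCS gene in each Treg cell library. The vertical axes give TMM CPM from 0, on a scale of their own for each gene, the points are the 3 WT (blue) and 3 KO (red) libraries with the replicate number as symbol, and the bars are group means. Socs2 lies between 35.8 and 42.8 CPM in WT and between 189 and 267 CPM in KO, and the Socs4 to Socs7 libraries of both groups overlap.

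Socs2, which is known above all as an inhibitor of growth hormone signalling and is also switched on by STAT5 in T cells, had the largest difference of the family. It was at 35.8, 38.2 and 42.8 CPM in WT replicates 1, 2 and 3 and at 219, 267 and 189 CPM in KO replicates 1, 2 and 3. The lowest KO library thus held several times the level of the highest WT library, and among the KO libraries replicate 2 was the highest and replicate 3 the lowest. The mean level was 38.9 ± 3.54 CPM in the WT mice and 225 ± 39.4 CPM in the KO mice (SD, n = 3). The log2 fold change was 2.53 (SE 0.15, 95% CI 2.18 to 2.88, edgeR QLF FDR = 0.000393), a 5.78-fold difference. By p it ranked at position 10 among the 11658 genes tested, and by the size of the increase at position 219. The raw counts behind it were 581 to 933 in WT and 2761 to 3942 in KO. The gene lies at chr10:95385362-95417180 on the reverse strand (GRCm38). Without KO replicate 1 the log2 fold change was again 2.53, and with each library left out in turn it stayed between 2.40 and 2.63. The smallest p an exact permutation test allows, 0.1, was reached.

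Cish, the founding member of the family and a direct target of STAT5, lies at chr9:107296026-107302784 on the forward strand. It was at 240.4, 194 and 271 CPM in the WT libraries and at 463, 499 and 451 CPM in the KO libraries. The WT libraries were more spread out than the KO libraries, with coefficients of variation of 16.5% and 5.25%, but the groups were well separated. Its log2 fold change was 1.0 (SE 0.13, 95% CI 0.69 to 1.31, edgeR QLF FDR = 0.00394), or 2.0-fold. The value was 1.0 without KO replicate 1 and between 0.88 and 1.11 when each of the 6 libraries was left out in turn. Cish shares 479 bases of exon, 13.1% of its exon length, with the antisense gene Gm17041 and 103 bases with the antisense pseudogene Gm17040. The reads were counted without regard to strand, so reads from these overlapping genes cannot be told apart from those of Cish. None of the 7 others shares exon bases with another gene of this annotation.

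Socs3, which binds gp130, the shared signalling chain of the IL-6 family receptors, and is a classical STAT3 target, varied little between libraries of a group. It was at 194, 204 and 208 CPM in WT and at 414, 405 and 456 CPM in KO. All KO libraries lay at about double the WT level, with coefficients of variation of 3.44% in WT and 6.42% in KO. The log2 fold change was 1.07 (SE 0.09, 95% CI 0.87 to 1.28, edgeR QLF FDR = 0.00088), and it stood at position 46 of all genes by p. It was 1.07 without KO replicate 1 and from 1.0 to 1.11 over the fits without a library. Its gene (chr11:117966079-117970047, reverse strand) lies on the chromosome of Mir142, 30.2 Mb away, and Socs7, which was not called, lies nearer, at 9.61 Mb.

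Socs1, the inhibitor of JAK1, JAK2 and TYK2 that limits IFNγ signalling and is needed by Treg cells to stay stable in inflammation, differed less. It was at 78.1, 60.1 and 61.5 CPM in WT and at 112, 79.8 and 101 CPM in KO. WT replicate 1 and KO replicate 2 nearly met, at 78.1 and 79.8 CPM without overlapping. The log2 fold change was 0.55 (SE 0.16, 95% CI 0.19 to 0.92, edgeR QLF FDR = 0.0486), or 1.47-fold. It stood at position 2154 of all genes by p, close to the threshold. Without KO replicate 1, the highest library, the log2 fold change was 0.42 and the FDR 0.0871. The call was also lost without WT replicate 1, WT replicate 2, WT replicate 3 or KO replicate 3, with FDRs of 0.0577, 0.174, 0.16 and 0.115, and held without KO replicate 2, with an FDR of 0.0199. With library totals alone the FDR was 0.0878, and with DESeq2 it was 0.0109. The direction was upward in every one of these fits.

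**Figure D2:**
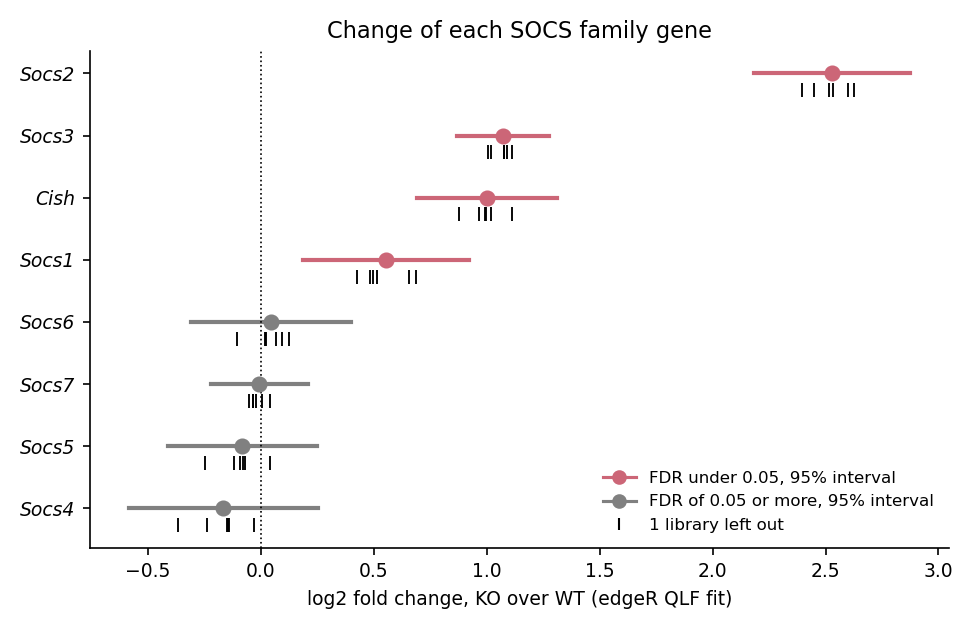
Log2 fold change of KO over WT for each SOCS gene (horizontal axis), ordered by size. Points and thick lines give the estimate of the edgeR QLF fit and its 95% interval, red where the FDR is under 0.05, and the ticks under each line give the 6 fits without 1 library. The ticks of Socs2, Socs3, Cish and Socs1 all lie above 0, from 0.42 for the lowest of Socs1 to 2.63 for the highest of Socs2, and those of Socs5, Socs6 and Socs7 fall on both sides of 0.

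The 4 genes with longer amino-terminal regions, Socs4 to Socs7, are less tied to STAT feedback, and act among other things on receptor tyrosine kinases and on insulin signalling. Their log2 fold changes lay between -0.17 for Socs4 and 0.04 for Socs6, with FDRs between 0.552 and 0.966. Socs4, which acts on the EGF receptor, was at 56.3, 54.2 and 47.6 CPM in WT and at 36.7, 59.7 and 44.5 CPM in KO. KO replicate 2 was the highest of all 6 libraries and KO replicate 1 the lowest, so the groups overlapped. Its 95% CI ran from -0.58 to 0.25, and its estimate was -0.03 without KO replicate 1. Socs5, also linked to the EGF receptor and to IL-4 signalling, ranged from 47.3 to 50.9 CPM in WT and from 38.8 to 56.3 CPM in KO. Its KO libraries spanned those of WT on both sides, the 95% CI was -0.41 to 0.25, and the log2 fold change of -0.08 was also -0.08 without KO replicate 1. Its sign turned without KO replicate 2, with a log2 fold change of 0.04.

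Socs6, which binds activated KIT among other receptors, was the least abundant of the family, with 216 to 422 counts per library. It lay between 13.3 and 18.0 CPM in WT and between 15.8 and 17.4 CPM in KO, inside the WT range. Its 95% CI was -0.31 to 0.40, and the sign of its log2 fold change of 0.04 turned without WT replicate 1, to -0.10, and with library totals alone, to -0.03. Without KO replicate 1 it was 0.02. Socs7, which holds docking sites for the adaptor NCK and acts on insulin receptor substrates, was at 66.5, 62.9 and 66.4 CPM in WT and at 59.1, 69.6 and 66.3 CPM in KO. The difference was smaller than the spread between libraries, with a log2 fold change of -0.01 (SE 0.09, 95% CI -0.22 to 0.21, edgeR QLF FDR = 0.966). Its sign turned without KO replicate 1, at 0.04, and without WT replicate 3, at 0.0026. For these 4 genes the data set bounds on a difference rather than showing that there was none: the widest interval, that of Socs4, reaches from -0.58 to 0.25 on the log2 scale.

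The SOCS genes fall into the same groups by size. The coding sequences of Socs2, Socs1, Socs3 and Cish span 198, 212, 225 and 257 codons, and those of Socs4, Socs6, Socs5 and Socs7 span 436, 533, 536 and 579 codons. The annotated exons add up to between 2.55 and 3.65 kb in the genes of the former group and to between 4.65 and 7.02 kb in those of the latter. The 8 genes do not form a cluster in the genome: Cish lies on chromosome 9, Socs1 on 16, Socs2 on 10, Socs3 and Socs7 on 11, Socs4 on 14, Socs5 on 17 and Socs6 on 18 (GENCODE vM21, GRCm38).

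To set the genes beside each other, CPM was divided by the kb of annotated exon. In WT the order by mean level per kb was Socs3, Cish, Socs1, Socs2, Socs5, Socs7, Socs4 and Socs6, from 79.2 ± 2.73 to 2.64 ± 0.411 CPM per kb (SD, n = 3). In every WT library this order was the same, although WT replicate 1 of Socs3 (76.2 CPM per kb) and WT replicate 3 of Cish (74.3 CPM per kb) were close. In KO, Socs2 moved above Socs1, at 83.4 ± 14.6 against 33.6 ± 5.67 CPM per kb, and its lowest library (70.0 CPM per kb) exceeded the highest of Socs1 (38.6 CPM per kb). The levels per kb of Socs5 and Socs7, and those of Socs7 and Socs4, were not separated over the KO libraries. All other neighbours in the order remained separate over the 3 libraries of a group.

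The summed level of the 8 genes was 213, 198 and 223 CPM per kb in the WT libraries and 435.5, 452 and 438 CPM per kb in the KO libraries, a ratio of means of 2.09. All KO libraries were above all WT libraries (exact two-sided permutation test, p = 0.1). Socs3 made up 35.8%, 40.5% and 36.5% of this sum in WT and 37.3%, 35.1% and 40.8% in KO. Its share overlapped between the groups, as did that of Cish, which was 30.4% ± 3.27 in WT and 29.2% ± 1.01 in KO (SD, n = 3 per group). Socs2 held 6.23%, 7.16% and 7.11% in WT and 18.6%, 21.9% and 16.0% in KO. The share of Socs1 was lower in every KO library than in every WT library, at 8.87%, 6.08% and 7.91% against 12.6%, 10.4% and 9.49%, although its own level was higher. Socs5, Socs7, Socs4 and Socs6 had mean shares of 5.06%, 4.41%, 3.64% and 1.25% in WT and of 2.29%, 2.10%, 1.54% and 0.616% in KO.

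**Figure D3:**
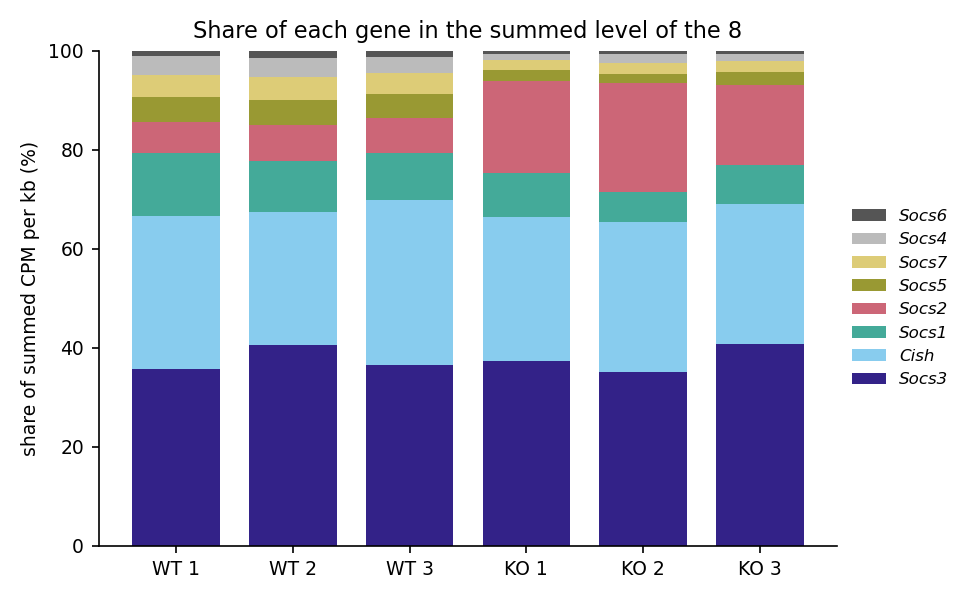
Share of each SOCS gene in the summed CPM per kb of the 8 (vertical axis, %), with 1 bar per library. The band of Socs2 widens from between 6.23% and 7.16% in the WT libraries to between 16.0% and 21.9% in the KO libraries, while Socs3 stays between 35.1% and 40.8% in all 6.

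Ratios within a library do not depend on the scaling between libraries. The log2 ratio of Socs2 over Cish, both per kb, was -2.31, -1.91 and -2.23 in WT and -0.65, -0.47 and -0.82 in KO. Socs2 was thus below Cish in every library, but by a smaller margin in KO, with a difference in the mean log2 ratio of 1.51 (exact two-sided permutation test, p = 0.1). Against Socs3 the difference was 1.45, with no overlap between the groups. The ratio of Socs3 over Cish was 0.21, 0.59 and 0.13 in WT and 0.35, 0.22 and 0.53 in KO. These values overlapped, and their means differed by 0.06 (exact two-sided permutation test, p = 0.7). The ratio of Socs1 over Socs3 was lower in every KO library, with a difference of -0.52, and that of Socs1 over Cish overlapped between the groups.

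The genes whose pattern over the 6 libraries was most like that of each called SOCS gene were found by the Euclidean distance between centred log2(CPM + 0.5) profiles. Among the called genes themselves, Cish and Socs3 were the closest pair, at a distance of 0.419, and Socs1 and Socs2 the farthest, at 2.53. For Socs2 the 3 nearest of all tested genes were Gng12 (0.416), Klhl4 (0.447) and Eomes (0.463), and Eomes also stands on the list of CD8 T and NK cell markers. Klhl4 passed the filter through the KO libraries alone, at 3.35 to 7.12 CPM against 0.41 to 0.77 CPM in WT. Its match to Socs2 thus rests on low WT levels. Gng12 was at 10.8, 12.5 and 14.5 CPM in WT and at 74.8, 65.9 and 54.1 CPM in KO. For Cish they were 1700097N02Rik (0.112), C77080 (0.136) and Trp53i11 (0.187). For Socs3 they were Hspa4l (0.15), Nck2 (0.151) and Pdxdc1 (0.153), of which Nck2 encodes an adaptor of the NCK family. For Socs1 they were Akap1 (0.138), Ptpn7 (0.17) and Sh3bp4 (0.178). The match is by profile alone.

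The 3′ UTRs were searched for 7-base matches to the miR-142 seeds. For miR-142a-3p these were ACACTAC and CACTACA, and AACACTA and ACACTAA for its seed shifted by 1 base. For miR-142a-5p they were ACTTTAT and CTTTATA. The 3′ UTR was that of the annotated transcript with the longest coding sequence, on the strand of the gene. The 3′ UTRs of Socs2 (1163 bases), Socs3 (1474 bases) and Cish (1087 bases), the 3 genes called in every fit, held none of the 6 matches. Among tested genes with a 3′ UTR within 20% of the length of that of Socs2, 8.96% held a match of the unshifted 3p seed, 11.9% one of the shifted seed and 19.1% one of the 5p seed. Socs1 held a 5p match, and Socs4, Socs5, Socs6 and Socs7 each held at least 1 match. The sites of Socs1, Socs5 and Socs7 are shown to give the match, in capitals, in its surroundings (GENCODE vM21, GRCm38):
Socs1, 5p, chr16:10783837-10783843, reverse strand: aggtaataaACTTTATtatgaaagt
Socs5, 3p, chr17:87136380-87136386, forward strand: agccatttgCACTACAgtagccaaa
Socs7, 3p, chr11:97395366-97395372, forward strand: ggaattggaACACTACtcagtgttg

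Of tested genes with 3′ UTRs of like length, 30.0% held a 5p match for Socs1 and 19.0% one of the unshifted 3p seed for Socs5. The site of Socs7 is preceded by an A, so that the shifted seed matches there too, and Socs7 also held a 5p match. For its length these shares were 32.7% for the unshifted 3p seed, 39.4% for the shifted seed and 62.1% for the 5p seed. Socs6 held both kinds of 3p match at overlapping positions and 2 5p matches in a 3′ UTR of 4019 bases. Of tested genes with 3′ UTRs of like length, 25.5% held a match of the unshifted 3p seed, 33.0% one of the shifted seed and 51.2% one of the 5p seed. Socs4 held a 5p match in 5182 bases, and 62.2% of like 3′ UTRs did. All 3 genes with a 3p match, Socs5, Socs6 and Socs7, were among those not called. So were most genes, since 18.8% of all genes tested were called. Over all 10779 tested genes with a 3′ UTR, 10.9% held a match of the unshifted 3p seed, 13.9% one of the shifted seed and 21.3% one of the 5p seed. A match is a description of the letters and does not show that the miRNA acts there.

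**Figure D4:**
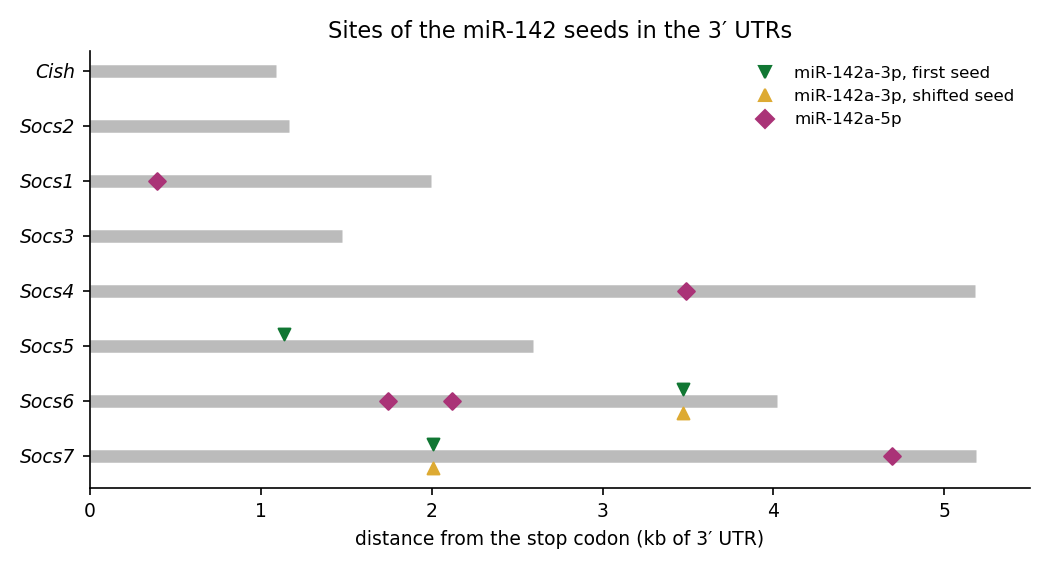
Positions of 7-base matches to the miR-142 seeds along the 3′ UTRs of the SOCS genes. The horizontal axis is the distance from the stop codon in kb, each grey bar is 1 3′ UTR drawn to its length, and the symbols mark matches of the unshifted (green) and shifted (yellow) miR-142a-3p seeds and of miR-142a-5p (purple). The bars of Cish, Socs2 and Socs3, of 1087, 1163 and 1474 bases, carry no symbol.

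Promoter windows were searched for the letters of the STAT site TTCNNNGAA, which reads the same on both strands. Windows of 300 bases, from 250 bases before to 50 after the start of the gene in RefSeq (GRCm38.p6), were matched by symbol for 4 of the 8 genes, Cish, Socs1, Socs3 and Socs4. The windows of Cish and Socs3 follow RefSeq starts 633 and 681 bases inside the GENCODE genes and lie wholly within them, while the start of Socs1 is the same in both annotations. Of 32851 such windows, 8.30% held the motif and 0.457% held it at least 2 times. The window of Cish held 2 copies, beginning 0 and 11 bases after the start, and that of Socs3 held 1 copy, beginning 154 bases before the start, in each case the RefSeq start. Those of Socs1 and Socs4 held none, which says only that these letters are not in the window. The windows of the 3 called genes are shown with the motif in capitals:
Cish, chr9:107296409-107296708, forward strand: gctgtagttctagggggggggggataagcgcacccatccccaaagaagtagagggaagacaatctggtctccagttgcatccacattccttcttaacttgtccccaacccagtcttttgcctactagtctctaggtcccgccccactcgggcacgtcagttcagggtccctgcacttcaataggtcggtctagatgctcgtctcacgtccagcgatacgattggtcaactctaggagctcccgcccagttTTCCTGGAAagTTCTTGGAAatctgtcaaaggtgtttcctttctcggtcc
Socs3, chr11:117969317-117969616, reverse strand: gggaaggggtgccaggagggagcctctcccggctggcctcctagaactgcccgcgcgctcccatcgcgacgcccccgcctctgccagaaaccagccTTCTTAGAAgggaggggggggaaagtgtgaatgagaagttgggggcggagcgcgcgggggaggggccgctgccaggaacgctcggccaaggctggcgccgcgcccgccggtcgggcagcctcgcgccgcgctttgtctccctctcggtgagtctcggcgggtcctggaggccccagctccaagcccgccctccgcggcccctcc
Socs1, chr16:10785487-10785786, reverse strand: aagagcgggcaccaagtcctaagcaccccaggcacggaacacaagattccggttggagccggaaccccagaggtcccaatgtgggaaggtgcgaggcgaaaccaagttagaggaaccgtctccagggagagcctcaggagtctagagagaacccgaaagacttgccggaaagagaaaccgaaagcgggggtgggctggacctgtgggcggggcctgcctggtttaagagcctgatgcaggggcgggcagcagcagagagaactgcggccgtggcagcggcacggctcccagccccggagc

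The receptors whose signal the SOCS proteins limit were read from a list of 35 chains, of which 24 were tested, 10 were called higher (41.7%) and 1 lower (4.17%), beside 11.6% and 7.27% of all genes tested. Their median log2 fold change was 0.43. Il2ra and Il2rb, chains of the IL-2 receptor whose STAT5 signal is known to switch on Cish, had log2 fold changes of 1.77 (FDR = 0.00088) and 1.03 (FDR = 0.000996) in the edgeR QLF test. Il10ra, whose ligand acts through STAT3, had 0.95 (edgeR QLF FDR = 0.00319). Il6ra, a chain of the receptor that Socs3 inhibits, was the exception, at 287, 288 and 339 CPM in WT and at 94.1, 138 and 119.8 CPM in KO (log2 fold change -1.38, edgeR QLF FDR = 0.00219). These 4 calls held whichever of the 6 libraries was left out, and the number of chains called higher then ranged from 4 to 11.

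Of the STATs, Stat4, which IL-12 activates, had a log2 fold change of -0.67 and was called lower whichever library was left out. Stat3, the STAT downstream of the receptors that Socs3 inhibits, had 0.36 and was called higher, but not in 5 of the 6 fits without a library (edgeR QLF FDR of up to 0.115). Stat3 also lost its call with a replicate block, library totals alone and no filter (edgeR QLF FDR = 0.0606, 0.0507 and 0.0515). Of 7 ligands tested, Il7 passed the filter through the KO libraries alone, at 1.03 to 1.72 CPM against 0.277 to 0.370 CPM in WT, and is left out of the counts. Of the 6 others, 3 were called higher (50%), among them Il4 (1.39) and Osm (0.86), beside 10.7% of all genes that did not pass through 1 group alone. Il4 was low, at 1.79 to 1.97 CPM in WT and at 4.24 to 5.99 CPM in KO. Osm lost its call without WT replicate 2 or 3 (edgeR QLF FDR of up to 0.0683). The calls among the ligands were 2 higher and 1 lower without KO replicate 1.

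Of 14 STAT5-linked genes other than Cish and Socs2, 5 were called higher in edgeR (35.7%), beside 11.6% of all genes tested. The leading ones were Il2ra, Gzmb (3.42) and Osm. Il2ra is also counted among the receptor chains and Osm among the ligands, so these calls are not separate from those above. DESeq2 called 8 of the list higher, and 1665 of all genes against 1350 in edgeR. Without WT replicate 2, edgeR called 2 of the list higher. Gzmb was at 120.4 CPM in KO replicate 1 and at 28.3 and 46.2 CPM in the other KO libraries, and its log2 fold change without that library was 2.59. Of 10 STAT3-linked genes other than Socs3, Ahr (1.07) and Bcl3 (0.89) were called higher, at 20% beside 11.6% of all genes tested. Bcl3 lost its call without WT replicate 2 (edgeR QLF FDR = 0.0527). In this list 1 gene, which is also among the ligands, was called lower without KO replicate 1.

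Of 9 subunits and cofactors of the ubiquitin ligases that the SOCS box recruits, Rbx1 (0.52) and Cul2 (0.42 on the log2 scale) were called higher, and of 15 other SOCS box genes Asb8 (0.70). The latter share, 6.67%, is below the 11.6% of all genes tested that were called higher, and 2 of 9 (22.2%) is 1 gene above it. These 3 calls were lost without any of the WT libraries (edgeR QLF FDR of up to 0.134), and that of Cul2 also without KO replicate 1 or 3. The call of Cul2 was also lost with a replicate block (edgeR QLF FDR = 0.0746), and that of Asb8 with no filter (edgeR QLF FDR = 0.0515). Of 14 other inhibitors of JAK-STAT signalling, Ptpn1, a phosphatase of JAK2 and TYK2, was higher (0.69) and Cbl (-0.50) and Usp18 (-0.56) were lower. These are shares of 7.14% and 14.3%, beside 11.6% and 7.27% of all genes tested. Cbl lost its call without WT replicate 2 or 3 or KO replicate 3, and Usp18 also without WT replicate 1 (edgeR QLF FDR of up to 0.147). Usp18 was not called with a replicate block or with no filter either (edgeR QLF FDR = 0.0641 and 0.0563). Of 8 growth factor receptors and adaptors that Socs4 to Socs7 are known to meet, Nck2 (1.08) and Kit (1.95) were called higher (25%), whichever library was left out.

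**Figure D5:**
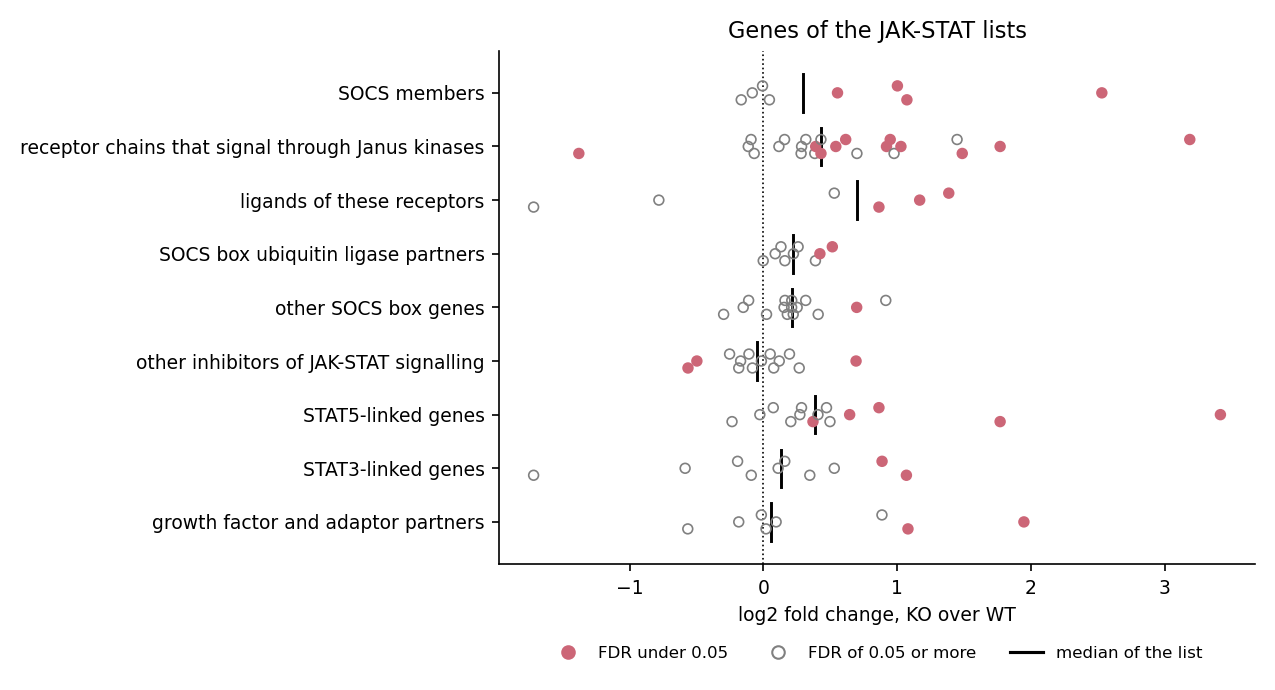
Log2 fold change of KO over WT (horizontal axis) for each tested gene of the SOCS family and of 8 lists of JAK-STAT genes. Filled red points have an FDR under 0.05, open points do not, and the black bar is the median of the list. The median is 0.30 for the 8 SOCS genes, and over the lists it runs from -0.05 for the other inhibitors, 0.06 for the growth factor and adaptor partners and 0.13 for the STAT3-linked genes, over 0.21 and 0.22 for the other SOCS box genes and the ligase partners, to 0.39 for the STAT5-linked genes, 0.43 for the receptor chains and 0.70 for the ligands other than Il7, which is not drawn, beside 0.02 over all genes tested.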

How the data were processed

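The authors used HISAT to align reads to mm10 and featureCounts, which ignored strand, to assign them to genes, and the deposited values are these counts, not normalized. CASAVA and edgeR are also named in the submitters' processing notes, without versions. The 6 libraries were grouped by the labels of their samples. Genes that exceeded 1 CPM in 3 or more libraries entered the fit of edgeR 4.0.16 (R 4.3.3, TMM, QLF test without robust estimation, FDR threshold 0.05 over all genes tested). The steps were tested on simulated data, and no outcome of that test is reported here. Printed CPM use the TMM-scaled library sizes, and profiles log2(CPM + 0.5). The common biological coefficient of variation was 0.212. Libraries of a group differed beyond sampling noise. Levels per kb use exon lengths of the basic GENCODE vM21 set, which may differ from the annotation used for counting.

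Named genes were the 8 SOCS genes; from each JAK-STAT list at most the 3 called genes with the smallest p in each direction; Mir142, Mir142b, Foxp3 and Cd4 as checks; the 3 nearest profiles of each called SOCS gene; and the most abundant gene of each marker list (Treg and CD4 T cells, neutrophils, monocytes and macrophages, B cells, CD8 T and NK cells, dendritic cells, erythroid cells). Marker genes at 0 in WT, and the share and ratio of single SOCS genes, were chosen after their values were seen. The SOCS genes and the lists were chosen with earlier results of these data known. Alternatives were RLE, library totals alone, 2 other filters, DESeq2 1.42.0, the QLF, likelihood ratio and exact tests together, robust estimation, a replicate block, an FDR of 0.01 and each library left out in turn.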

Additional observations from a re-analysis of the deposited data

How the results depend on the processing

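Socs2, Socs3 and Cish kept their direction and stayed under an FDR of 0.05 in every alternative run, and Socs4 to Socs7 stayed above it. Leaving out 1 library gave log2 fold changes of 2.40 to 2.63 for Socs2, 1.0 to 1.11 for Socs3, 0.88 to 1.11 for Cish, 0.42 to 0.69 for Socs1, -0.37 to -0.03 for Socs4, -0.25 to 0.04 for Socs5, -0.10 to 0.12 for Socs6 and -0.052 to 0.0415 for Socs7, and 3 or 4 SOCS genes called. Signs turned for Socs5 without KO replicate 2 (0.0419), for Socs6 without WT replicate 1 (-0.10) and with library totals alone (-0.031), and for Socs7 without WT replicate 3 (0.0026) and without KO replicate 1 (0.0415). Socs1 lost its call, at a main FDR of 0.0486, with RLE (log2 fold change 0.55, FDR = 0.0511), library totals alone (0.48, FDR = 0.0878), no filter (0.53, FDR = 0.0675) and filterByExpr (0.55, FDR = 0.0504), and its FDR in edgeR or DESeq2 ranged from 0.0109 to 0.174. The cause was not tested.

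Genes called, 2197 (1350 higher, 847 lower), ranged from 691 to 2340 (483 to 1403 higher, 208 to 937 lower) with a library left out, where fewer libraries are part of the construction, and were 686 (490 higher, 196 lower) at an FDR of 0.01, which called 3 SOCS genes. With library totals alone 47.0% of the calls were upward, against 61.4%. The replicate block gave 1606 calls (1061 higher, 545 lower) and 4 SOCS genes. Same-numbered libraries did not deviate together (correlations 0.08, -0.01 and -0.20), and not every library correlated best with its own number, so the numbers were not taken as pairs. Leaving out a library gave 1 to 3 calls higher for the ligands, 2 to 5 for STAT5-linked genes, 1 to 2 for STAT3-linked genes, 0 to 2 for the SOCS box partners, 0 to 2 for other SOCS box genes (2 with DESeq2) and 0 to 3 calls lower for other inhibitors. Without KO replicate 1 the ligands and the STAT3-linked genes each had 1 call lower, of the same gene, against 0 in the main fit, and 2 calls higher. With 3 mice per group the 95% interval of Socs4, the widest of the genes not called, ran from -0.58 to 0.25.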
